A study of Mus musculus with 12 samples.

Results

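The miR-29 family in mouse comprises 3 closely related microRNAs, miR-29a, miR-29b and miR-29c, and each of its hairpin precursors can give rise to a mature strand from its 3p arm and another from its 5p arm. The rows of the deposited table whose name is an arm of miR-29a, of any copy of miR-29b or of miR-29c were taken as members, which gave 7 of the 1042 miRNAs: mmu-miR-29a-3p, mmu-miR-29a-5p, mmu-miR-29b-3p, mmu-miR-29b-1-5p, mmu-miR-29b-2-5p, mmu-miR-29c-3p and mmu-miR-29c-5p. They were measured by small RNA sequencing in 12 libraries from 5 mouse cell types. The libraries were 3 of mouse embryonic fibroblasts (MEFs, strain C57B6/129SvJae F1), 3 of embryonic stem cells (ESCs, line E14, strain 129/ola), and 2 each of induced pluripotent stem cells (iPSCs), nuclear transfer ESCs (NT-ESCs) and NT-iPSCs, all of the C57B6/129SvJae F1 background. A dox-inducible lentivirus carrying Oct4, Sox2, Klf4 and c-Myc turned MEFs into iPSCs. For NT-ESCs a MEF nucleus, and for NT-iPSCs an iPSC nucleus, was placed in an enucleated oocyte. These 3 types, together called reprogrammed cells, came from the same MEFs. All 4 pluripotent types were grown on irradiated MEF feeders in medium with LIF, so that their RNA could include that of feeder cells. Each type was represented by a single line, of which separate RNA batches were sequenced, so that p-values from limma measure the spread between batches and not between lines. The permutation tests treat each library as a unit, although the batches of a type come from the same line.

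A microRNA guides a silencing complex to messenger RNAs through its seed, the bases 2 to 8 from the 5′ end. In most hairpins one arm is kept and the other is degraded, and in the miR-29 family the 3p arm is the strand usually described as the active one. The miR-29 3p arms are best known for repressing collagens and other matrix proteins in fibroblasts and the DNA methyltransferases Dnmt3a and Dnmt3b, and TET enzymes are also among their known targets. They are generally described as rising with differentiation and maturation of tissues.

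The 3 mature 3p arms are shown because their near identity decides how far they can be told apart in sequencing. They were taken from RefSeq (GRCm38.p6) and matched by name, and the capitals mark the seed.
mmu-miR-29a-3p: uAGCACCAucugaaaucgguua
mmu-miR-29b-3p: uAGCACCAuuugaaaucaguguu
mmu-miR-29c-3p: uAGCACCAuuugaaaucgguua
All 3 carried the seed AGCACCA, and no other of the 1679 mature names in the RefSeq table carried it. Counted from 1 at the 5′ end, mmu-miR-29c-3p and mmu-miR-29a-3p differed at 1 position, U10C, with the base of mmu-miR-29c-3p given first. Relative to mmu-miR-29c-3p, mmu-miR-29b-3p differed by G18A, U21G and A22U over the shared length.

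The 4 mature 5p arms are shown for contrast, since none of them carried that seed, and they are printed without capitals.
mmu-miR-29a-5p: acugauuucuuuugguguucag
mmu-miR-29b-1-5p: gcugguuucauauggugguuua
mmu-miR-29b-2-5p: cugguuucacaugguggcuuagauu
mmu-miR-29c-5p: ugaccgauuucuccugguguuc
The seeds were CUGAUUU for mmu-miR-29a-5p, CUGGUUU for mmu-miR-29b-1-5p, UGGUUUC for mmu-miR-29b-2-5p and GACCGAU for mmu-miR-29c-5p, so that no pair of 5p arms had the same one.

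The family is encoded in a pair of 2-hairpin clusters. In GRCm38, Mir29a (chr6:31062660-31062747) and Mir29b-1 (chr6:31063023-31063093) lay on the minus strand of chromosome 6 with 275 bases between them. An exon of the lincRNA Gm27019 on the same strand (chr6:31063092-31063495) overlapped only the outermost bases at the 5′ end of Mir29b-1. Mir29b-2 (chr1:195037040-195037120) and Mir29c (chr1:195037547-195037634) lay on the plus strand of chromosome 1 with 426 bases between them, inside an exon of the noncoding transcript A330023F24Rik and opposite an exon of Cd46. The deposited table gives names without coordinates, so the positions were matched by hairpin name. The mature mmu-miR-29b-3p has the same sequence in Mir29b-1 and Mir29b-2, so its reads could not be assigned to either chromosome. The Mir29a hairpin is shown with both mature arms in capitals, the 5p arm first, since the arm ratios reported for it compare these 2 stretches of 1 precursor.
Mir29a: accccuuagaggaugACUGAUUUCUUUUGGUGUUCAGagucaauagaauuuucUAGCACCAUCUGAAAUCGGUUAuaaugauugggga

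The authors deposited variance-stabilized (VST) values on a log2 scale, normalized between libraries with DESeq. Inverting the transformation gave whole reads, which totalled 7867514 to 8608689 on miRNAs in MEF libraries, 4863365 to 5771398 in ESC libraries and 5293867 to 7567263 in reprogrammed libraries. Levels are given as CPM, the reads of a miRNA per 1000000 miRNA reads of its library, and 3 reads, taken as the floor, correspond to a CPM of 0.348 to 0.617. The floor covers counting error only, since reads amplified by PCR need not be separate molecules. Differences between groups are differences in mean VST, in log2 units, tested with limma across the 732 miRNAs that reached 10 reads in 2 or more libraries and adjusted by Benjamini-Hochberg at 0.05. Of the 7 arms, 6 were tested, and mmu-miR-29b-2-5p fell short of the filter. The reprogrammed libraries stood apart from the others across the whole table: their relative DESeq size factors, from 1.09 to 1.37, lay above the 0.724 to 0.95 of the MEF and ESC libraries. The labels give no sequencing batch, and any batch that follows the cell types cannot be told apart from them. Nor can strain in the comparisons of reprogrammed cells or of MEFs with ESCs. The labelled cell types were checked against 9 pluripotent miRNAs, whose summed CPM was 0.745 to 8.83 in MEFs and between 67849 and 130968 in the pluripotent libraries. Of these, miR-302a-3p, miR-302d-3p and miR-367-3p had 0 reads in every MEF library.

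mmu-miR-29a-3p was the dominant member in every cell type and was far more abundant in reprogrammed cells than in ESCs or MEFs. Its CPM was 720, 783 and 688 in the ESC libraries and 1114, 1252 and 1132 in the MEF libraries. It was 13984 and 16584 in iPSCs, 24854 and 28922 in NT-ESCs, and 34335 and 28493 in NT-iPSCs. No reprogrammed library overlapped an ESC or a MEF library, and in CPM the lowest reprogrammed library stood 17.9-fold above the highest ESC library and 11.2-fold above the highest MEF library. These gaps were smaller on the VST scale, where the lowest reprogrammed library was at 17.84, the highest ESC library at 14.25 and the highest MEF library at 15.73. Ranked by reads in each library, mmu-miR-29a-3p moved from between rank 100 and 108 in ESCs, and 60 to 62 in MEFs, to between rank 5 and 18 in reprogrammed cells.

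On the VST scale the order of the levels of mmu-miR-29a-3p was ESCs (14.10 ± 0.14, SD, n = 3), MEFs (15.66 ± 0.07, SD, n = 3), iPSCs (18.06 ± 0.31, SD, n = 2), NT-ESCs (19.24 ± 0.11, SD, n = 2) and NT-iPSCs (19.65 ± 0.21, SD, n = 2). The last pair of neighbours, NT-ESCs and NT-iPSCs, was not separated by limma (adjusted p = 0.168), while each other step between neighbours passed the test. The mean of the 3 reprogrammed types was 4.89 above ESCs (SE 0.13, adjusted p = 6.4e-11 in limma) and 3.32 above MEFs (SE 0.13, adjusted p = 3.46e-10 in limma). As a ratio of mean CPM the former was 33.6-fold.

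**Figure D1:**
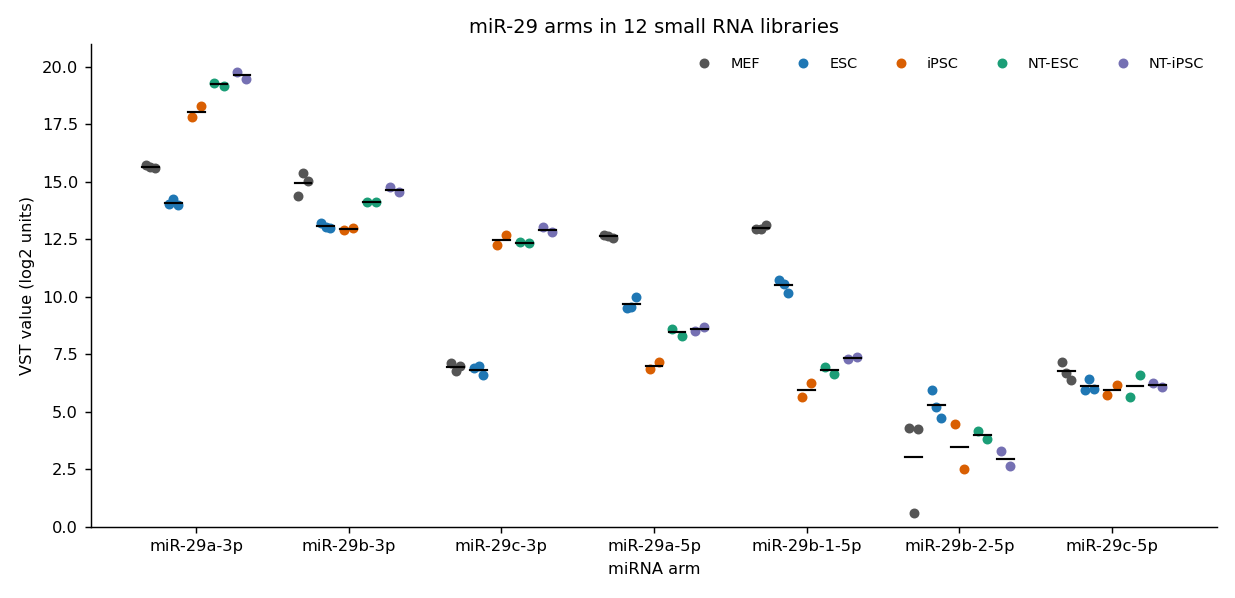
VST values (vertical axis, log2 units) of the 7 miR-29 arms (horizontal axis) in 12 libraries, with 1 point per library coloured by cell type and a black bar for each group mean. The reprogrammed points of miR-29a-3p and miR-29c-3p lie above the MEF and ESC points, those of miR-29a-5p and miR-29b-1-5p lie below them, and miR-29c-5p stays between 5.67 and 7.18 throughout.

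mmu-miR-29c-3p, which differs from mmu-miR-29a-3p by a single base outside the seed, had few reads in MEFs and ESCs and at least 1360 in every reprogrammed library. It had 24, 20 and 23 reads in the MEF libraries and 24, 29 and 20 reads in the ESC libraries. It had 1531 and 2068 reads in iPSCs, 1791 and 1360 in NT-ESCs, and 2353 and 1997 in NT-iPSCs. Every reprogrammed library lay above all MEF and ESC libraries, and the lowest reprogrammed CPM (218) was 43.4-fold above the highest in ESCs (5.02). On the VST scale the same extremes were 12.25 and 7.004. The mean of the reprogrammed types exceeded ESCs by 5.74 (SE 0.16, adjusted p = 7.47e-11 in limma) and MEFs by 5.62 (SE 0.16, adjusted p = 2.84e-11). The order of its mean VST was ESCs (6.83), MEFs (6.96), NT-ESCs (12.36), iPSCs (12.46) and NT-iPSCs (12.91), and the only step between neighbours that passed the test was the one from MEFs up to the reprogrammed types.

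Because these 2 arms are near-identical, they were set side by side within libraries. For every 100 reads of mmu-miR-29a-3p there were 0.203 to 0.252 reads of mmu-miR-29c-3p in MEFs and 0.579 to 0.686 in ESCs. There were 2.05 and 2.07 in iPSCs, 0.818 and 0.877 in NT-ESCs, and 0.914 and 0.965 in NT-iPSCs. The number of mmu-miR-29c-3p reads per read of mmu-miR-29a-3p was thus highest in iPSCs and lowest in MEFs. How the authors assigned reads that fit more than 1 arm is not given in the sources used here. The part of such reads, and of single-base sequencing errors, in these values was not tested.

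mmu-miR-29b-3p did not share the large differences of the other 3p arms between reprogrammed cells and ESCs or MEFs. Its CPM was 397, 333 and 346 in ESCs, 442, 1026 and 777 in MEFs, 452 and 418 in iPSCs, 797 and 752 in NT-ESCs, and 1051 and 918 in NT-iPSCs. The MEF libraries were spread widely and overlapped the reprogrammed ones, and the reprogrammed libraries overlapped the ESC libraries on the VST scale, although in CPM the lowest of them was 1.05-fold above the highest ESC library. Against ESCs, mmu-miR-29b-3p was called higher in NT-ESCs (1.06, SE 0.23, adjusted p = 0.00159 in limma) and in NT-iPSCs (1.58, SE 0.23, adjusted p = 7.9e-05 in limma). In iPSCs it was within 0.14 of ESCs (−0.14, SE 0.23, adjusted p = 0.607 in limma, with a 95% interval from −0.65 to 0.38), and the sign of that difference turned with total reads (0.28) or upper quartile scaling (0.09). The mean of the 3 types stood 0.83 above ESCs (SE 0.18, adjusted p = 0.00122 in limma). Relative to MEFs it fell by 1.04 (SE 0.18, adjusted p = 0.000207 in limma), but with total miRNA reads as library size that difference was −0.03 (adjusted p = 0.894), and the mean CPM was 731 in reprogrammed cells and 748 in MEFs. Its order of mean VST was iPSCs (12.93), ESCs (13.07), NT-ESCs (14.13), NT-iPSCs (14.65) and MEFs (14.94), in which iPSCs and ESCs, NT-ESCs and NT-iPSCs, and NT-iPSCs and MEFs were not separated by limma.

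The 5p arms of the chromosome 6 hairpins went the opposite way to mmu-miR-29a-3p in reprogrammed cells against ESCs and against MEFs. mmu-miR-29a-5p, the partner strand of mmu-miR-29a-3p, had 1160, 1213 and 1116 reads in MEFs and 152, 172 and 218 in ESCs. It had 36 and 44 reads in iPSCs, 130 and 82 in NT-ESCs, and 102 and 114 in NT-iPSCs. On the CPM scale no reprogrammed library, at 6.8 to 17.2, reached the lowest ESC library at 29.8, and MEFs lay above both at 135 to 154. The mean of the reprogrammed types fell by 1.67 relative to ESCs (SE 0.16, adjusted p = 1.45e-06 in limma) and fell by 4.61 relative to MEFs (SE 0.16, adjusted p = 1.21e-10 in limma).

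mmu-miR-29b-1-5p, the 5p arm of the neighbouring hairpin, showed a wider range. It had 1405, 1514 and 1631 reads in MEFs, 349, 352 and 249 in ESCs, 15 and 23 in iPSCs, 40 and 26 in NT-ESCs, and 44 and 46 in NT-iPSCs. The 5 cell types kept the order MEFs, ESCs, NT-iPSCs, NT-ESCs, iPSCs with no overlap between MEFs, ESCs and the reprogrammed libraries. Relative to ESCs the mean of the reprogrammed types fell by 3.8 (SE 0.18, adjusted p = 3.15e-09 in limma), and relative to MEFs it fell by 6.31 (SE 0.18, adjusted p = 2.84e-11 in limma). In mean CPM, mmu-miR-29b-1-5p was 12.9-fold higher in ESCs and 39.5-fold higher in MEFs than in reprogrammed cells.

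The 5p arms of the chromosome 1 hairpins had few reads in all cell types, at most 25 in any library. mmu-miR-29c-5p had between 15 and 25 reads in MEF libraries, 12 and 19 in ESC libraries, and 16 and 25 in the reprogrammed ones, and the 3 ranges of CPM overlapped. Its reprogrammed mean differed from ESCs by −0.02 (SE 0.29, adjusted p = 0.944 in limma, 95% interval −0.67 to 0.62), a difference whose sign changed with total reads (0.09) and upper quartile scaling (0.23). Its difference from MEFs was −0.67 (SE 0.29, adjusted p = 0.0488 in limma), a call that was lost with TMM-type scaling (−0.33, adjusted p = 0.329) and turned direction with total reads (0.31, adjusted p = 0.3). That call was also lost with no filter (adjusted p = 0.067), with only the groups compared (adjusted p = 0.0615), and without MEF replicate 13 or 14, ESC replicate 2 or 4, iPSC replicate 62, NT-ESC replicate 71, or either NT-iPSC library, with differences from −0.70 to −0.46 and adjusted p up to 0.213. mmu-miR-29b-2-5p had 3, 0 and 3 reads in MEFs, 12, 8 and 5 in ESCs and 1 to 6 in reprogrammed cells. With counts so close to the floor of 3 reads, mmu-miR-29b-2-5p was not tested and no fold is given.

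**Figure D2:**
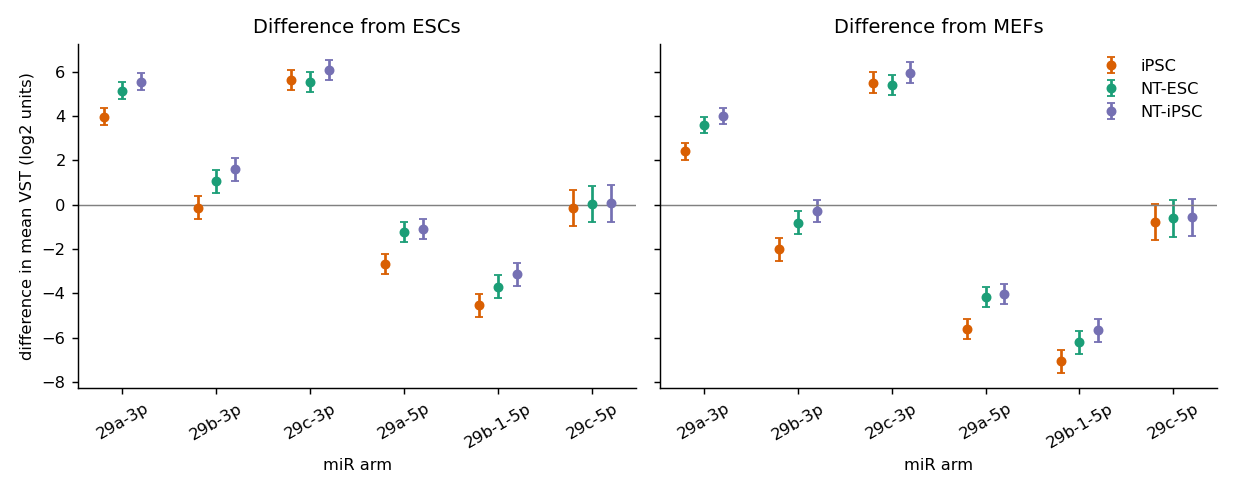
Difference in mean VST (vertical axis, log2 units) of each reprogrammed type from ESCs (left) and from MEFs (right) for the 6 tested arms, with bars for the 95% interval from limma. Relative to ESCs, 29a-3p and 29c-3p lie between 3.97 and 6.08, 29a-5p and 29b-1-5p lie between −4.55 and −1.10, and the 29c-5p intervals include 0.

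Counted over arms, 3 of 6 tested arms were higher in the reprogrammed mean than in ESCs, 2 were lower and 1 was not called. Across all 732 miRNAs tested, 44% were called higher and 38% lower in that comparison, so the family's counts lay near the background, and the sizes of the differences are therefore given by rank. mmu-miR-29c-3p had rank 23 and mmu-miR-29a-3p rank 43 from the highest of the 732 differences, and mmu-miR-29b-1-5p had rank 67 from the lowest. The median absolute difference over all 732 miRNAs was 2.00. Against MEFs, 2 arms were higher and 4 lower, where 48.5% of all miRNAs were called higher and 40.4% lower. There mmu-miR-29c-3p had rank 82 and mmu-miR-29a-3p only rank 188 from the highest, mmu-miR-29b-1-5p had rank 28 from the lowest, and the median absolute difference of all miRNAs was 2.75. For single types against ESCs, iPSCs had 2 arms higher and 2 lower (39.8% and 36.1% of all miRNAs), NT-ESCs 3 and 2 (39.8% and 36.1%) and NT-iPSCs 3 and 2 (41.1% and 36.5%). All of these comparisons share the ESC or the MEF libraries and are not independent.

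MEFs and ESCs were compared as the starting cell and the reference for pluripotency. In MEFs, 4 of 6 tested arms were higher and none was lower, with 39.1% of all miRNAs called higher and 39.9% lower. The 4 arms were both from Mir29a and the arms read from Mir29b-1: mmu-miR-29a-3p by 1.57 (SE 0.15), mmu-miR-29a-5p by 2.94 (SE 0.18), mmu-miR-29b-3p by 1.87 (SE 0.21) and mmu-miR-29b-1-5p by 2.51 (SE 0.21), with adjusted p of at most 7.72e-06 in limma. mmu-miR-29b-3p can also come from Mir29b-2, whose untested 5p arm mmu-miR-29b-2-5p was at 0 to 0.372 CPM in MEFs and 0.995 to 2.47 CPM in ESCs. The 2 arms of miR-29c were not called, but this depended on the scaling. mmu-miR-29c-3p differed by 0.13 (SE 0.19, adjusted p = 0.546 in limma), turned to −0.37 with TMM-type scaling, and was called lower in MEFs with total reads (−0.74, adjusted p = 0.0016 in limma). mmu-miR-29c-5p differed by 0.64 (SE 0.34, adjusted p = 0.1 in limma), turned to −0.22 with total reads, and was called higher with upper quartile scaling (0.88, adjusted p = 0.0257 in limma). Total reads as library size moved the median difference of all miRNAs by −0.80 in this comparison, and mmu-miR-29a-3p was then 0.68 above ESCs and still called.

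As a share of all miRNA reads, the 3 miR-29 3p arms together took 0.156%, 0.228% and 0.191% in MEFs and 0.112%, 0.112% and 0.104% in ESCs. They took 1.47% and 1.73% in iPSCs, 2.996% and 2.58% in NT-ESCs, and 3.57% and 2.97% in NT-iPSCs. The difference between reprogrammed cells and ESCs was 2.44 percentage points (exact permutation test over libraries, two-sided, p = 0.0119, the smallest this design allows, adjusted p = 0.026 over 24 exact tests of shares and ratios). Against MEFs it was 2.36 points (exact permutation p = 0.0119, adjusted p = 0.026). For MEFs against ESCs the exact permutation test cannot go below p = 0.1 and gave that value, with a difference of 0.0824 points and no overlap of the libraries. The make-up of the 3p reads also differed. mmu-miR-29a-3p held 54.9% to 71.5% of them in MEF libraries and 64.1% to 69.9% in ESC libraries. It held 94.96% to 96.5% in the reprogrammed libraries, where mmu-miR-29b-3p was reduced to 2.41% to 3.09% from 28.4% to 45.0% in MEFs and 29.7% to 35.4% in ESCs.

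**Figure D3:**
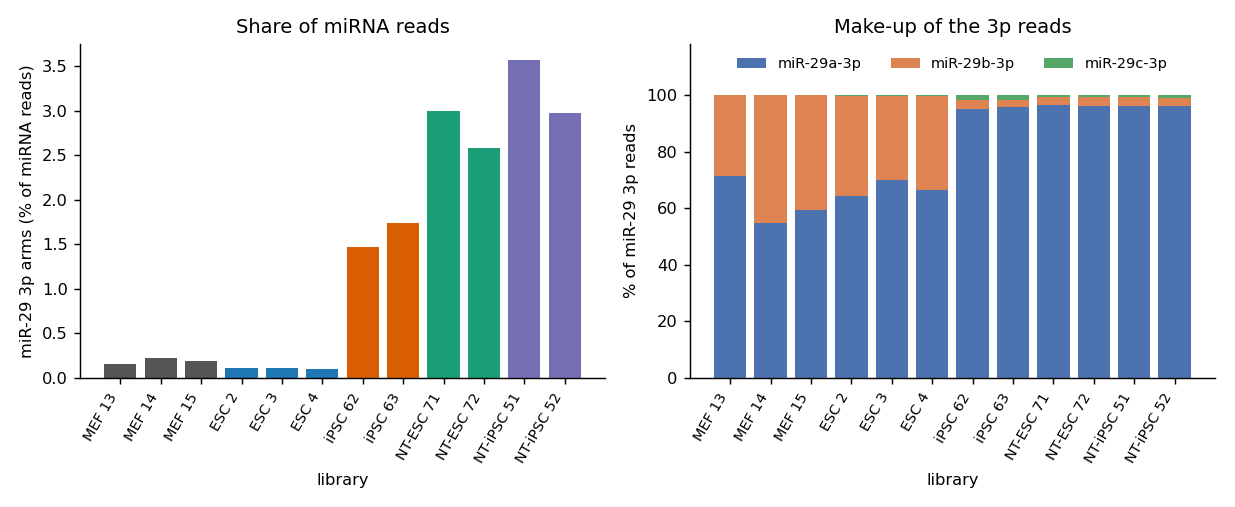
Left, the percent of miRNA reads on the 3 miR-29 3p arms (vertical axis) in each of 12 libraries (horizontal axis), coloured by cell type. Right, the percent of those reads on each arm in the same libraries. The 6 reprogrammed libraries sit between 1.47% and 3.57%, above all MEF and ESC libraries, and their 3p reads are at least 94.96% miR-29a-3p.

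Ratios between members of 1 library do not depend on how libraries are scaled. The log2 ratio of mmu-miR-29a-3p to mmu-miR-29b-3p averaged 0.72 ± 0.54 (SD, n = 3) over the MEF libraries and 1.03 ± 0.19 (SD, n = 3) over the ESC libraries, with 0.5 reads added to each arm. It was 5.08 ± 0.14 (SD, n = 6) over the reprogrammed libraries. Reprogrammed cells exceeded ESCs by 4.05 and MEFs by 4.36 (exact permutation p = 0.0119 for both, adjusted p = 0.026). The ratio hardly varied among the reprogrammed libraries, between 4.95 and 5.31, and between the nuclear transfer types and iPSCs it differed by −0.08 (exact permutation p = 0.667). The ratio of mmu-miR-29b-3p to mmu-miR-29c-3p differed by −4.92 between reprogrammed cells and ESCs and by −6.66 between reprogrammed cells and MEFs (exact permutation p = 0.0119 for both). For mmu-miR-29a-3p over mmu-miR-29c-3p, reprogrammed cells differed from MEFs by −2.30 (exact permutation p = 0.0119, adjusted p = 0.026). They differed from ESCs by −0.87, which the test did not separate (exact permutation p = 0.0595, adjusted p = 0.107), although no library overlapped.

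The ratio of the 2 arms of single hairpins also differed between the types. There were 8.27, 8.12 and 8.17 reads of mmu-miR-29a-3p for each read of mmu-miR-29a-5p in MEFs, and 23.0, 26.3 and 15.9 in ESCs. There were 2056 and 2295 in iPSCs, 1684 and 1890 in NT-ESCs, and 2524 and 1815 in NT-iPSCs. On the log2 scale the 3p to 5p ratio of miR-29a in reprogrammed cells exceeded that in ESCs by 6.57 and that in MEFs by 7.94 (exact permutation p = 0.0119 for both, adjusted p = 0.026). For miR-29c the number of 3p reads per 5p read lay between 0.96 and 1.53 in MEF libraries, between 1.53 and 2 in ESC libraries and between 54.4 and 112 in the reprogrammed ones. Its log2 ratio in reprogrammed cells exceeded that in ESCs by 5.79 and that in MEFs by 6.31 (exact permutation p = 0.0119 for both, adjusted p = 0.026). For mmu-miR-29b-3p over mmu-miR-29b-1-5p, described without a test because the 3p arm has 2 sources, the log2 ratio lay between 1.44 and 2.80 in MEFs and ESCs and between 6.76 and 7.47 in reprogrammed cells. Among the reprogrammed types the miR-29a arm ratio of the nuclear transfer types differed from that of iPSCs by −0.14 (exact permutation p = 0.533) and the miR-29c ratio by −0.02 (exact permutation p = 1).

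**Figure D4:**
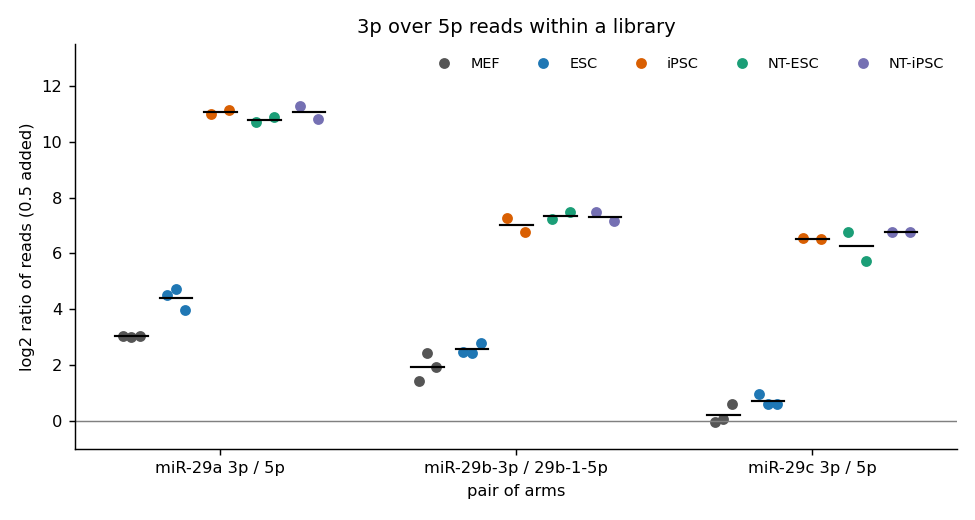
Log2 ratio of 3p to 5p reads (vertical axis, 0.5 reads added to each) within each library for miR-29a, miR-29b-3p over 29b-1-5p, and miR-29c (horizontal axis), with 1 point per library coloured by cell type and a bar for each group mean. For miR-29a the reprogrammed libraries lie between 10.71 and 11.29 and the others between 3.02 and 4.71, and for miR-29c between 5.74 and 6.77 against −0.06 to 0.97.

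The shift in arm ratio was set beside that of all 263 hairpins with both arms tested, miR-29a and miR-29c included. Between MEFs and ESCs the change of 3p minus 5p had a standard deviation of 1.5 over hairpins and a median of 0.05, and 2.66% of hairpins changed by more than 4 on the log2 scale. Between reprogrammed cells and ESCs the standard deviation was 3.86, the median 0.36, and 32.3% of hairpins changed by more than 4, in both directions. Arm ratios of hairpins throughout the table thus differed widely between the reprogrammed libraries and the ESC libraries, and the values for miR-29 lie within that spread. miR-29a, with a change of 6.56, had rank 16 of 263 from the highest and miR-29c, with 5.77, rank 24. By size in either direction their ranks were 25 and 39. Against MEFs, miR-29a had rank 6 from the highest with 7.93 and miR-29c rank 17 with 6.28, among hairpins with a standard deviation of 3.69. There the ranks by size were 9 and 27. Between the reprogrammed types the spread over hairpins was 0.702 for NT-ESCs against iPSCs and 0.758 for NT-iPSCs against iPSCs, and miR-29a changed by −0.26 and 0.00117. The authors' sequencing summary also separated every reprogrammed library from every MEF and ESC library. The reprogrammed libraries had more total reads, a higher share of adaptor contaminants, and lower shares of reads lacking an adaptor or an insert. Whether the libraries were prepared or sequenced together is not given in the sources used here, and the part of library preparation in the arm ratios was not tested.

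**Figure D5:**
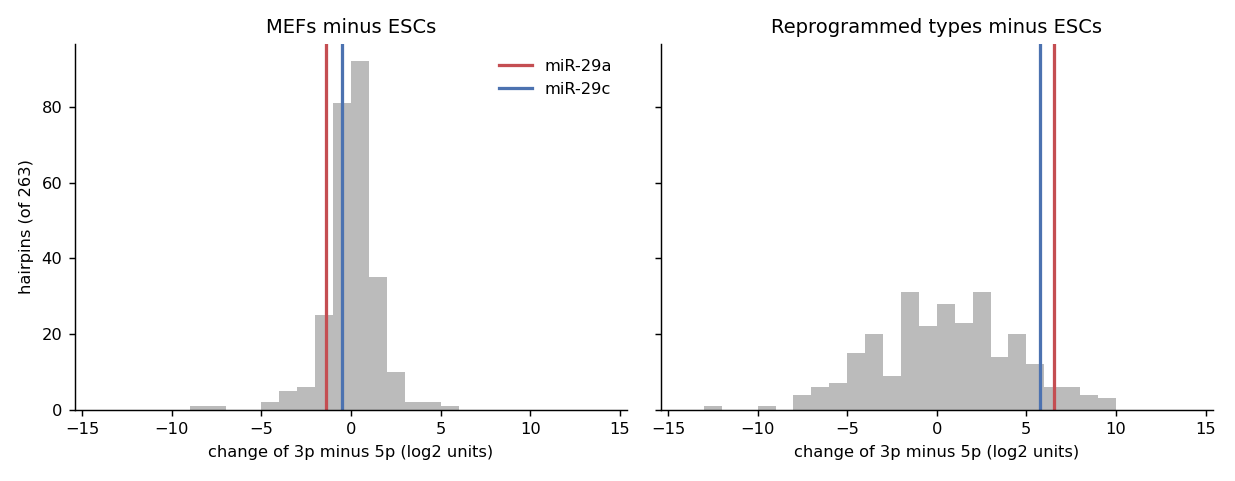
Histograms of the change of 3p minus 5p VST (horizontal axis, log2 units, bins of 1) over 263 hairpins (vertical axis, number of hairpins) for MEFs minus ESCs (left) and the mean of the reprogrammed types minus ESCs (right), with lines for miR-29a and miR-29c. On the left the lines lie at −1.37 and −0.51 in a narrow distribution, and on the right at 6.56 and 5.77 in the upper part of a wide one.

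Within the reprogrammed cells, the nuclear transfer types were compared with iPSCs. NT-iPSCs went through both factor and oocyte reprogramming, and each type is a single line, so method and line cannot be told apart. Both nuclear transfer types were called higher than iPSCs for mmu-miR-29a-3p, mmu-miR-29a-5p, mmu-miR-29b-3p and mmu-miR-29b-1-5p, and no call was made for the miR-29c arms. The untested mmu-miR-29b-2-5p averaged 0.649 CPM in iPSCs, against 0.571 CPM in NT-ESCs and 0.202 CPM in NT-iPSCs, with libraries that overlapped. For NT-ESCs against iPSCs, 4 of 6 tested arms were higher and none lower, where 12.6% of all miRNAs were called higher and 13.1% lower. For NT-iPSCs against iPSCs, 4 were higher and none lower, with 13.4% and 13.1% of all miRNAs. Both comparisons use the same 2 iPSC libraries and are not independent. mmu-miR-29a-3p was 1.18 higher in NT-ESCs (SE 0.18, adjusted p = 0.00111 in limma) and 1.58 higher in NT-iPSCs (SE 0.18, adjusted p = 0.000112 in limma). mmu-miR-29a-5p rose by 1.44 and 1.58 (SE 0.23 for both) and mmu-miR-29b-3p by 1.19 and 1.72 (SE 0.26 for both), so both arms of miR-29a were higher by like amounts. mmu-miR-29b-1-5p was higher by 0.85 in NT-ESCs (SE 0.26, adjusted p = 0.0325 in limma) and by 1.40 in NT-iPSCs (SE 0.26, adjusted p = 0.00245 in limma). The former call rested on 15 to 40 reads a library and was lost without iPSC replicate 62 (0.56, adjusted p = 0.19) and without either NT-ESC library (0.71 and 0.99), with voom (0.87, adjusted p = 0.101) and with only the groups compared (0.85, adjusted p = 0.151). The latter was lost when only the groups compared were fitted (adjusted p = 0.0748 in limma).

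Total reads as library size moved the median of all miRNAs by −0.35 in NT-ESCs against iPSCs and left 2 of these 4 calls. The calls lost were mmu-miR-29b-3p (0.83, adjusted p = 0.0565 in limma) and mmu-miR-29b-1-5p (0.51, adjusted p = 0.14 in limma). The share of miRNA reads on the 3p arms was 3.03% in the 4 nuclear transfer libraries and 1.60% in the 2 iPSC libraries, with no overlap, and the exact permutation p of 0.0667 is the smallest that 4 against 2 libraries allows. NT-iPSCs and NT-ESCs gave 0 called of 6 tested arms in limma, with 2 arms at an unadjusted p under 0.05 and 1 arm, mmu-miR-29c-3p, called by voom, while 5.6% of all miRNAs were called higher and 7.24% lower.

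Markers of fibroblasts, which are also the feeder cells, moved with these differences. All 8 of 8 fibroblast and mesenchymal miRNAs were higher in NT-ESCs than in iPSCs (median difference 1.8) and in NT-iPSCs than in iPSCs (median 2.01), where 12.6% and 13.4% of all miRNAs were called higher. Their summed CPM was 11319 to 12650 in iPSCs, 31974 to 32447 in NT-ESCs, 32833 to 37423 in NT-iPSCs, 38608 to 42839 in ESCs and 58365 to 88852 in MEFs, and none of the 8 was at 0 reads throughout any type. Fewer or more cells of a type and less or more RNA per cell cannot be told apart in bulk libraries. The part of feeder RNA in the differences among reprogrammed types was not tested. For mmu-miR-29a-3p and mmu-miR-29c-3p, every reprogrammed library held more than any MEF library. The lowest reprogrammed and highest MEF library were at VST 17.84 and 15.73 for mmu-miR-29a-3p and at 12.25 and 7.12 for mmu-miR-29c-3p. The part of feeder RNA in these levels was not tested either. Against ESCs, 3 of the 8 were higher in reprogrammed cells and 5 lower (median −1.82). The most abundant of these markers were miR-143-3p and miR-199a-3p, which differed between reprogrammed cells and ESCs by −4.22 (SE 0.19) and 3.66 (SE 0.16), with adjusted p of at most 2e-09 in limma.

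Of the other miRNA groups, let-7 was the only one of 6 lists whose tested members were all called in 1 direction between the reprogrammed mean and ESCs, and the counts of each group are to be read beside the 44% of all miRNAs called higher and 38% called lower in reprogrammed cells against ESCs. Of 6 miRNAs known to act on DNA methyltransferases, 1 was higher and 3 lower in reprogrammed cells than in ESCs, with a median of −1.93 where that of all miRNAs was 0.24. Of these, miR-143-3p fell as given above and miR-101b-3p differed by −0.26 (SE 0.16, adjusted p = 0.141 in limma). Of 7 miRNAs known from matrix and fibrosis biology, 3 were higher and 4 lower (median −1.55). miR-21-5p, linked to fibrosis, fell by 1.98 (SE 0.13) and miR-30a-5p fell by 1.55 (SE 0.12). All 9 of the let-7 list found in the table, miRNAs that mark differentiation, were higher in the reprogrammed mean (median 1.17), with let-7f-5p higher by 1.67 (SE 0.12) and let-7a-5p by 1.17 (SE 0.14). In iPSCs alone against ESCs, 2 of the 9 were higher, 2 lower and 5 not called (median 0.02), where 39.8% and 36.1% of all miRNAs were called higher and lower. All 9 were higher in NT-ESCs and in NT-iPSCs than in iPSCs (medians 1.51 and 2.28, with 12.6% and 13.4% of all miRNAs called higher), the same comparisons in which the 4 arms of miR-29a and miR-29b were called higher. Of 5 neural miRNAs, 3 were higher and 2 lower, among them miR-128-3p (3.42 higher, SE 0.13) and miR-9-5p (−3.31, SE 0.12). Of the 9 pluripotent miRNAs, 4 were higher and 2 lower, and the most abundant, miR-293-3p and miR-295-3p, differed from ESCs by 0.30 (SE 0.50) and −0.29 (SE 0.996) and were not called.

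The miRNAs whose VST followed mmu-miR-29a-3p most closely over the 12 libraries were miR-1839-5p (Pearson r = 0.991), miR-23a-3p (0.987), miR-365-3p (0.977), miR-34b-5p (0.976) and miR-129-2-3p (0.976). The points share 5 cell types and their library sets, so these values describe a common contrast between the reprogrammed and the other libraries. The 5 miRNAs were above ESCs by 2.49 to 7.24 and above MEFs by 1.68 to 6.05 in the mean of the reprogrammed types, which their choice by likeness to mmu-miR-29a-3p over the same libraries largely fixes. Within the family, r with mmu-miR-29a-3p was 0.951 for mmu-miR-29c-3p, 0.267 for mmu-miR-29b-3p, −0.206 for mmu-miR-29c-5p, −0.565 for mmu-miR-29a-5p and −0.758 for mmu-miR-29b-1-5p.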

How the data were processed

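The 12 small RNA libraries were taken from 5 cell types. Before deposit, the authors trimmed and filtered the tags, annotated them as miRNAs, normalized the reads with DESeq and applied its variance stabilizing transformation, which gives log2 values. The submitters' processing notes name the build mm8, and the miRBase release is not given in the sources used here. Inverting the transformation brought every nonzero value within 0.0162 of a whole read. Groups were compared with limma 3.58.1 in R 4.3.3 (1 mean per group, trended variance, adjusted p 0.05), a script tested on simulated data. Shares and ratios had exact permutation tests over libraries, run under Python 3.11.15. Other tools were pandas 2.3.3, numpy 2.4.6, scipy 1.17.1 and matplotlib 3.10.9. The members and lists were chosen with earlier results of these data known. The text names every arm, the 2 miRNAs of each list with the highest mean value, and the 5 tested miRNAs most correlated with mmu-miR-29a-3p. It also names the pluripotent miRNAs without reads in any MEF library. Alternatives were total reads, upper quartile and TMM-type scaling, log2 of normalized reads plus 1, voom, no filter, a filter at 100 reads, fits restricted to the compared groups, a minimum difference of 1, a pseudocount of 5 and each library left out.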

Additional observations from a re-analysis of the deposited data

How the results depend on the processing

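Leaving out a library kept the number of called miR-29 arms within 1.5 times in 107 of 108 cases and the other settings did so in 79 of 81. The exceptions were NT-ESCs against iPSCs with total miRNA reads as library size (2 arms) and NT-iPSCs against NT-ESCs, with 1 arm under voom and 0 to 1 when a library was left out (1 without MEF replicate 13). Total reads moved the median of all miRNAs by −0.80 for MEFs against ESCs and by 0.98 for reprogrammed cells against MEFs, and TMM-type scaling by −0.43 and 0.34. Total reads turned the direction of mmu-miR-29c-3p (−0.74) and mmu-miR-29c-5p (−0.22) in MEFs against ESCs, of mmu-miR-29b-3p in iPSCs against ESCs (0.28), and of mmu-miR-29c-5p in reprogrammed cells against ESCs (0.087) and MEFs (0.31). TMM-type scaling turned mmu-miR-29c-3p in MEFs against ESCs (−0.37), and upper quartile scaling mmu-miR-29b-3p in iPSCs against ESCs (0.094) and mmu-miR-29c-5p in reprogrammed cells against ESCs (0.23). The latter ranged from −0.18 to 0.13 with a library left out. The cause was not tested.

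Leaving out a library raised the smallest p the exact tests can give, since fewer arrangements remain. Without any single ESC library, every contrast with ESCs that had passed lost its call, and the same held for MEF libraries and contrasts with MEFs. The 3p share also lost its call against both without NT-ESC replicate 72, and against MEFs without NT-ESC replicate 71 or NT-iPSC replicate 52. Adjusted p ranged from 0.039 to 0.0779 for the reprogrammed contrasts that had passed. Their values ranged, against ESCs and against MEFs in turn, from 2.24 to 2.66 and 2.16 to 2.58 percentage points for the 3p share, 3.97 to 4.15 and 4.14 to 4.66 for mmu-miR-29a-3p over mmu-miR-29b-3p, −5.03 to −4.71 and −7.01 to −6.34 for mmu-miR-29b-3p over mmu-miR-29c-3p, 6.36 to 6.72 and 7.88 to 7.99 for the arms of miR-29a, and 5.73 to 5.95 and 6.18 to 6.51 for those of miR-29c. Against MEFs, mmu-miR-29a-3p over mmu-miR-29c-3p ranged from −2.41 to −2.14. In the nuclear transfer types against iPSCs, mmu-miR-29a-3p over mmu-miR-29b-3p ranged from −0.26 to 0.10 and the arm ratio of miR-29c from −0.11 to 0.23. With at least 100 reads required, 5 arms remained tested. No paired analysis was possible because the groups share no replicate numbers. mmu-miR-29b-2-5p and mmu-miR-29c-5p had at most 25 reads in any library, and the part of depth in their results was not tested.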
